A study of Schizosaccharomyces pombe with 6 samples.

Results

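The histone genes of the fission yeast Schizosaccharomyces pombe are described here in cells that lack rad24, which encodes a 14-3-3 protein that binds phosphorylated partners. The set holds 10 of the 6986 genes in the count table, taken by name: the H2A genes hta1 and hta2, the H2B gene htb1, the H3 genes hht1, hht2 and hht3, the H4 genes hhf1, hhf2 and hhf3, and the H2A.Z gene pht1. All 10 passed the filter on low counts. Poly(A)+ RNA was sequenced from 3 libraries of an h+ rad24∆::NatMX strain, in which a drug marker replaces rad24, and from 3 libraries of an h+ wild type strain. Both strains were growing vegetatively at 30 °C in YES, a rich medium, and were taken in log phase. Each genotype is a single strain, and the labels do not state whether its 3 libraries are separate cultures. The p-values therefore rest on the spread among these libraries alone, which may be technical.

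Nucleosomes wrap DNA around a core of H2A, H2B, H3 and H4, and a cell must make new histones while it copies its DNA. Many core histone genes of fission yeast are therefore expressed mainly in S phase, though not every copy need follow the cell cycle alike. Most core genes lie in divergent pairs that share a promoter, and their mRNAs carry a poly(A) tail. Where transcription rises in S phase, it depends on Ams2, a GATA-type factor that acts through a promoter element called the AACCCT box. The HIRA proteins hold histone transcription down outside S phase. Which copies follow S phase in these strains was not tested. H2A.Z is an H2A variant that the SWR1 complex places near gene starts, and it is not tied to DNA replication in the same way. In RNA from a whole culture, a larger share of cells in S phase and more histone RNA per S phase cell cannot be told apart. Nor can either be told apart from more histone RNA outside S phase.

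The promoter windows show what the core histone genes share and pht1 lacks. They were read from the RefSeq genome of build ASM294v3, between the annotated transcript starts of each divergent pair, and over the 250 bases upstream of hta2 and pht1. In these sequences the AACCCT box, or its reverse complement AGGGTT, is in capitals. The pair windows are printed on the plus strand, and those of hta2 and pht1 on the strand of the gene. They lie at chrI:4699600-4699731 (hhf1-hht1), chrII:1364985-1365118 (hhf2-hht2), chrII:3529566-3529766 (hht3-hhf3), chrIII:1412182-1412358 (hta1-htb1), chrI:4053319-4053568 (hta2) and chrII:1503445-1503694 (pht1).
hhf1-hht1: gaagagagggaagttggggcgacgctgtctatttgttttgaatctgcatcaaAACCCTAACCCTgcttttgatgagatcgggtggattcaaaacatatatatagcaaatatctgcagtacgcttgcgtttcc
hhf2-hht2: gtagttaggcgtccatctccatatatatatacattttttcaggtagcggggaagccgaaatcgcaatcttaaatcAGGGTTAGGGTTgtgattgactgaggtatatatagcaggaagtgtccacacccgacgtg
hht3-hhf3: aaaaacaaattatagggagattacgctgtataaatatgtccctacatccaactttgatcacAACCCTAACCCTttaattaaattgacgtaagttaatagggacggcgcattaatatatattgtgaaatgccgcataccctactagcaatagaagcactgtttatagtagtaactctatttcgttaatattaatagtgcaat
hta1-htb1: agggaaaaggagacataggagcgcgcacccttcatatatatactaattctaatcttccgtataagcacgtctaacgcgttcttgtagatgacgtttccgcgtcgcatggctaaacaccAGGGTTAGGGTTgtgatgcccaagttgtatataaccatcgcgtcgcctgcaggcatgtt
hta2: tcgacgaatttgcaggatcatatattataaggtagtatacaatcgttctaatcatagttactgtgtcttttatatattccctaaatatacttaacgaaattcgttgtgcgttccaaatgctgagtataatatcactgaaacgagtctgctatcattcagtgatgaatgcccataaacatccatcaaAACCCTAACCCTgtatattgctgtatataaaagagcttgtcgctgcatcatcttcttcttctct
pht1: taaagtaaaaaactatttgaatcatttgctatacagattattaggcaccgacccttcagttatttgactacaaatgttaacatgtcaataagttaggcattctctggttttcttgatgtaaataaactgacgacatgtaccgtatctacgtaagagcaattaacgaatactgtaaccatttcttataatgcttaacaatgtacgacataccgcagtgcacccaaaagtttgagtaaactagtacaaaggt

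Each of the first 5 windows held 2 boxes in direct succession, which together read AACCCTAACCCT on 1 strand, and the pht1 window held none. When 250 bases upstream of each protein-coding gene were searched on both strands, all 9 core histone genes held this 12-letter word, as did 11 of 5096 genes outside the set (0.216%). At least 1 AACCCT was found in 8.3% of all 5106 such windows. The short windows of a divergent pair overlap, so the 8 paired genes stand for 4 separate promoters. ACGCGT, the core of the element bound by the G1/S factor MBF, was found in the hta1-htb1 window and in 2.64% of all 250-base windows, and the other 5 printed windows held none. A match describes the letters and does not show that a factor binds.

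**Figure D1:**
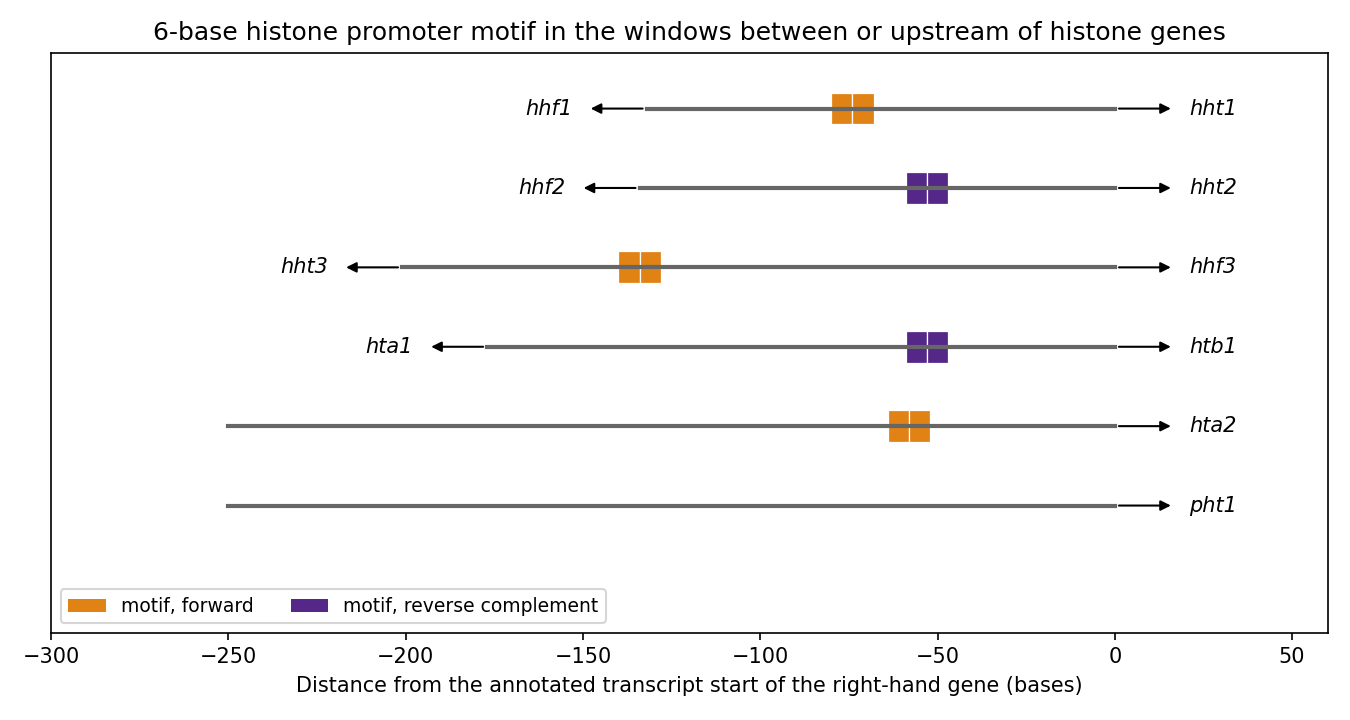
Position of the AACCCT box in the 6 windows, as the distance in bases from the annotated transcript start of the gene on the right, with arrows for the direction of transcription. Orange and purple boxes are forward and reverse matches, and each window but that of pht1 holds 2 adjoining matches. The first base of the box nearer to the left edge lies at position 53 of 132 bases for hhf1-hht1 and at position 119 of 177 bases for hta1-htb1.

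Total counts were 19396868 to 21730112 in the deletion libraries and 11539278 to 15282140 in the wild type libraries. The deleted gene had 27, 39 and 15 counts in the deletion libraries, against 22565, 18442 and 21135 counts in wild type, so each library had the genotype its label gives. Levels are given as CPM, counts per gene scaled to a common library size with TMM factors, and a gene was called at an edgeR adjusted p below 0.05 over all 6084 genes tested. The deletion changed much of the transcriptome: 78.3% of the genes tested were called, 40.9% higher and 37.4% lower, with a median over all genes of 0.02 on the log2 scale. Among protein-coding genes, 41.9% were called higher and 39.5% lower.

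Of the 10 histone genes, 8 were higher in the deletion, pht1 was lower and htb1 was not called. That is 8 of 10 against a background of 40.9% higher, with a median log2 fold change of 0.47 over the set and 0.02 over the genes tested. All 3 deletion libraries lay above all 3 wild type libraries for the same 8 genes, an order found for 41.8% of all genes, and below them for pht1, an order found for 38.3%. All 3 H3 genes and all 3 H4 genes rose, by 1.29-fold to 1.66-fold. The H2A gene hta2 rose by a similar amount, and hta1, which shares its promoter with htb1, rose by less. Together the 10 genes took 0.907%, 0.907% and 0.953% of all counts in the deletion libraries, against 0.624%, 0.63% and 0.65% in wild type.

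**Figure D2:**
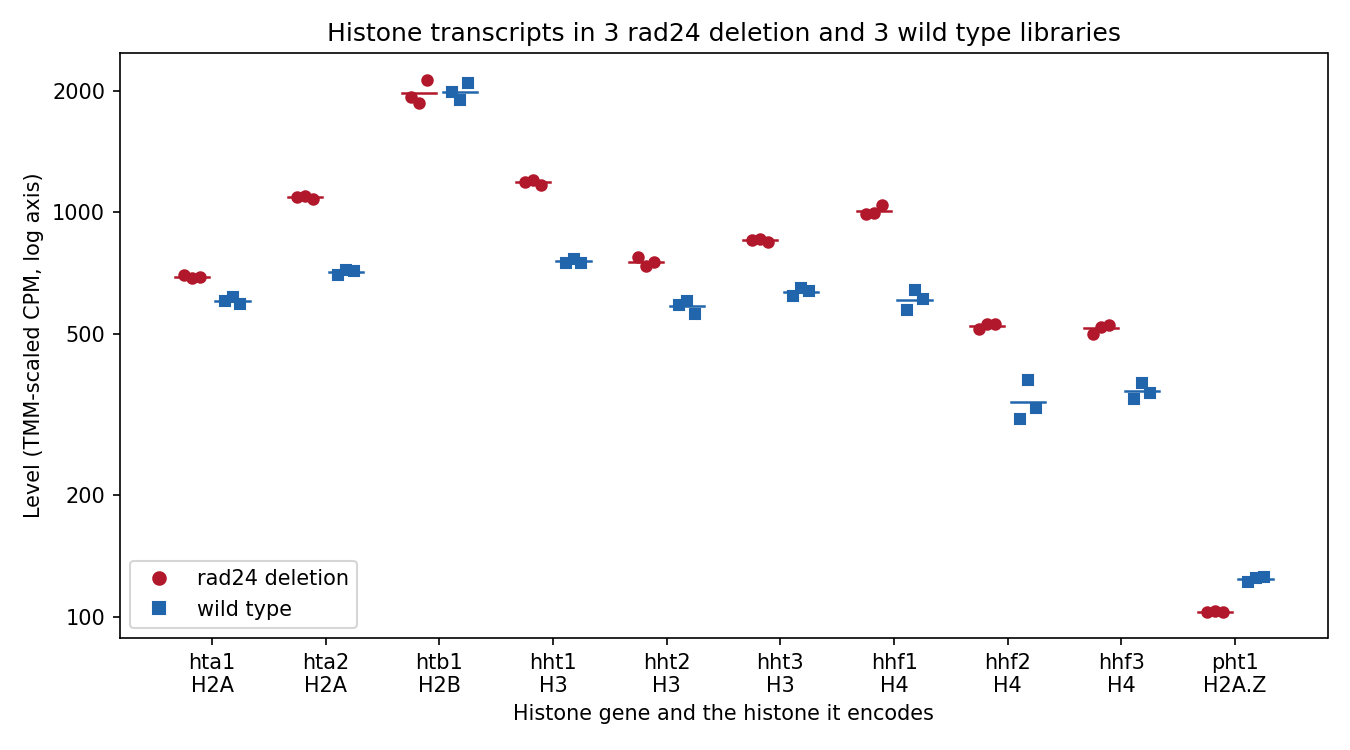
Level of each histone gene in each library, in TMM-scaled CPM on a log axis, with deletion libraries as red circles, wild type libraries as blue squares and group means as lines. All 3 deletion libraries lie above all 3 wild type libraries for 8 genes and below them for pht1, while the htb1 libraries overlap.

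H2A is encoded by 2 unlinked genes, and the fold change of hta2 was the larger. The level of hta2 (SPAC19G12.06c, H2A beta) was 1091, 1099 and 1079 CPM in the deletion libraries, against 698, 719 and 716 CPM in wild type. No library of one genotype reached the range of the other, and the log2 fold change was 0.62 ± 0.04 (SE) at an edgeR adjusted p of 5.91e-09. Unlike the other core genes, hta2 has no divergent histone partner. The level of hta1 (SPCC622.08c, H2A alpha) was 701, 688 and 694 CPM in the deletion libraries, against 604, 618 and 594 CPM in wild type. The groups did not overlap here either, but the gap was small, with a log2 fold change of 0.20 ± 0.04 (SE) at an edgeR adjusted p of 0.000294. In the authors' deposited table hta1 has the same fold change with a larger SE of 0.09 and an adjusted p of 0.0423.

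H2B has a single gene in this species, htb1 (SPCC622.09), which runs away from hta1 across a window of 177 bases. Its level was 1930, 1870 and 2132 CPM in the deletion libraries, against 1981, 1896 and 2093 CPM in wild type. The groups overlapped, and the spread within each was wider than for the H2A genes, at 6.95% of the mean in the deletion and 4.97% in wild type. Its log2 fold change was -0.01 ± 0.06 (SE) at an edgeR adjusted p of 0.888. When libraries were scaled by their totals alone, which moved the median of all genes to 0.19, htb1 had a log2 fold change of 0.16 (edgeR adjusted p = 0.0252).

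The H3 genes rose together, with hht1 ahead. Of the 3 copies, hht1 (SPAC1834.04) had 1186, 1201 and 1173 CPM in the deletion libraries, against 749, 769 and 751 CPM in wild type. The deletion libraries agreed within 1.18% (SD over mean) and all lay far above wild type, a log2 fold change of 0.65 ± 0.04 (SE) at an edgeR adjusted p of 3.78e-09. The copy hht3 (SPBC1105.11c) had 855, 862 and 846 CPM in the deletion libraries, against 621, 652 and 638 CPM in wild type (log2 fold change 0.42 ± 0.04 SE, adjusted p = 2.8e-07 in edgeR). The copy hht2 (SPBC8D2.04) had 777, 738 and 752 CPM in the deletion libraries, against 592, 605 and 560 CPM in wild type (log2 fold change 0.37 ± 0.04 SE, adjusted p = 2.79e-06 in edgeR). For both of these copies the lowest deletion library lay above the highest wild type library.

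Among the H4 genes, hhf1 (SPAC1834.03c), the partner of hht1, showed the largest fold change of the set. Its level was 991, 995 and 1043 CPM in the deletion libraries, against 574, 642 and 611 CPM in wild type (log2 fold change 0.73 ± 0.05 SE, adjusted p = 7.73e-09 in edgeR). The partner of hht2, hhf2 (SPBC8D2.03c), had 516, 529 and 529 CPM in the deletion libraries, against 309, 384 and 327 CPM in wild type. Its wild type replicate 2 stood above the other wild type libraries, the wild type spread was 11.5% of the mean, and the groups still did not overlap. The log2 fold change of hhf2 was 0.63 ± 0.06 (SE) at an edgeR adjusted p of 5.55e-07. It was 0.72 without that library, 0.56 without wild type replicate 1 and 0.60 without wild type replicate 3. The partner of hht3, hhf3 (SPBC1105.12), had 499.9, 522 and 527 CPM in the deletion libraries, against 345, 379 and 358 CPM in wild type (log2 fold change 0.52 ± 0.04 SE, adjusted p = 7.61e-08 in edgeR).

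The H2A.Z gene moved the other way. The level of pht1 (SPBC11B10.10c) was 102.8, 103 and 102.8 CPM in the deletion libraries, against 121, 124 and 126 CPM in wild type. The groups were tight and apart, with a log2 fold change of -0.27 ± 0.03 (SE) at an edgeR adjusted p of 2.52e-06. Scaled by library size only, pht1 had a log2 fold change of -0.10 (edgeR adjusted p = 0.0178), set against the median of 0.19 for all genes. Outside the set, cnp1, which encodes the centromeric H3 variant CENP-A, averaged 38.1 ± 2.22 CPM in the deletion and 27.8 ± 1.25 CPM in wild type (SD, n = 3 each), with a log2 difference of 0.45 ± 0.06 (SE) and an edgeR adjusted p of 1.43e-05. Its transcript overlaps 2 other counted genes in the ASM294v3 annotation.

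**Figure D3:**
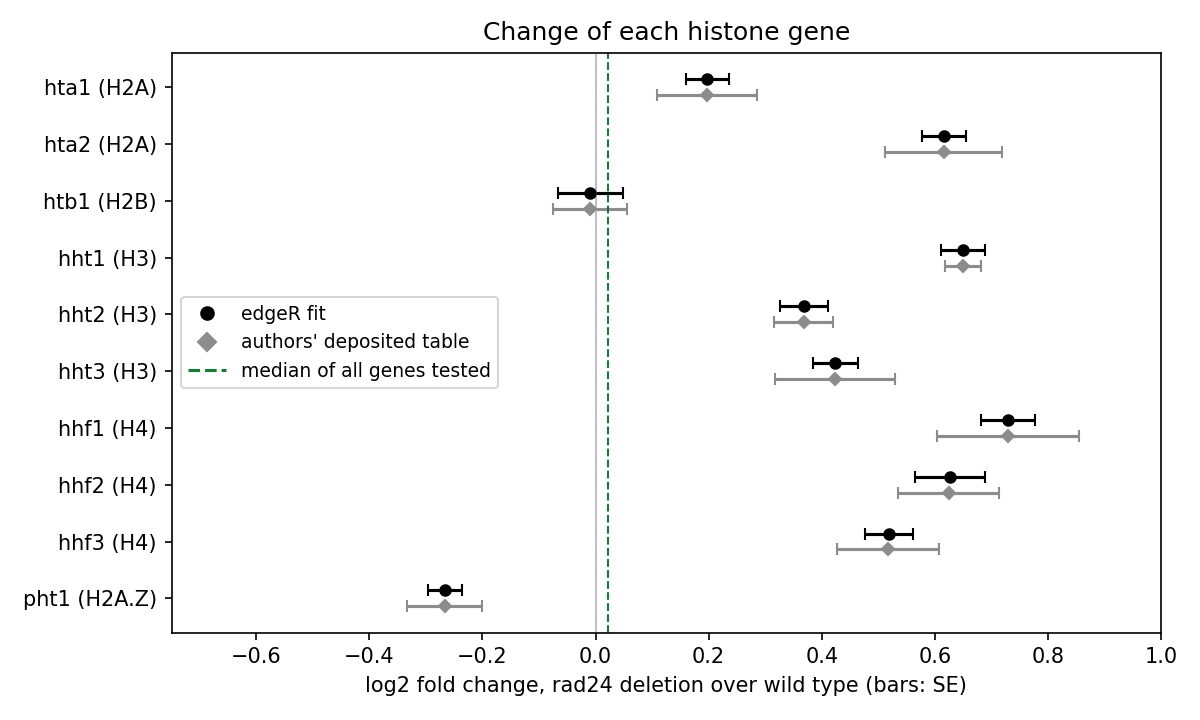
The log2 fold change of each histone gene, deletion over wild type, from the edgeR fit (black circles) and from the authors' deposited table (grey diamonds), with bars for the SE and a dashed line at the median of all genes tested, 0.02. The H3, H4 and hta2 points lie between 0.37 and 0.73, hta1 at 0.20, htb1 at -0.01 and pht1 at -0.27.

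The fold changes in the authors' deposited table, which rests on the same libraries, ran in the same order, from 0.73 for hhf1 to -0.27 for pht1. The SEs there were larger for 9 genes, such as 0.13 for hhf1, and smaller for hht1, at 0.03. The table gives an adjusted p of 0.000176 for pht1 and of 0.929 for htb1. In the edgeR fit, the difference between hhf1 and hht1 was 1.3 times its combined SE. It was 0.31 times for hht1 and hhf2, 0.15 for hhf2 and hta2, and 0.96 for hht3 and hht2. For hta2 and hhf3 it was 1.69 times, and for hhf3 and hht3 1.63 times. The order within these pairs is therefore not settled.

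Sister copies are alike but not identical in coding sequence. Coding sequences of the H3 copies were 88.3% to 92.7% identical, those of the H4 copies 91.3% to 93.3%, and those of hta1 and hta2 86.5%. Even so, no word of 100 bases in any of the 10 transcripts occurs elsewhere in the ASM294v3 genome. At 50 bases, 6 words are shared between hhf2 and hhf3 (0.803% and 1.05% of their words), and the other 8 genes share none. The read length is unknown here, and mismatches allowed by the aligner were not modelled.

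Overlap with other counted genes touched 5 members. The non-coding gene hta1-antisense-1 covers all 1038 bases of hta1 on the opposite strand and reaches into the first bases of htb1. It had 109, 104 and 119 counts in the deletion libraries, against 51, 39 and 46 counts in wild type, a log2 fold change of 0.56 ± 0.14 (SE) at an edgeR adjusted p of 0.00246. On the opposite strand of hhf3, hhf3-antisense-1 covers the whole gene and had 11, 18 and 11 counts in the deletion libraries, against 6, 6 and 4 counts in wild type, which was too few to be tested. The lowest count of a library was 6619 for hta1 and 4057 for hhf3. Which strand setting the counting used is unknown here. The counts of hta1 and hhf3 lay far from those of the antisense genes that cover them, so reads were not simply pooled over strands. How completely antisense and sense reads were separated was not tested. The remaining overlaps, with other counted genes, are at the 3′ ends of the transcripts: 79 bases of hhf2, 46 bases of hht3 and 258 bases of htb1.

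Per kilobase of transcript, using ASM294v3 lengths, the levels can be ordered. In the deletion htb1 stood first with 1499 ± 104 CPM per kb (SD, n = 3), followed by hht1 with 1431 ± 16.8. Next came hta2 with 1248 ± 11.3, hhf1 with 1221 ± 34.8, hht3 with 1115 ± 10.8 and hht2 with 1080 ± 27.9. The lower places were those of hhf3 with 830.2 ± 23.3, hta1 with 669 ± 6.28, hhf2 with 659 ± 9.65 and pht1 with 82.8 ± 0.0517 CPM per kb. The libraries of neighbours overlapped for htb1 and hht1, hta2 and hhf1, hht3 and hht2, and hta1 and hhf2, so the order within these pairs is not settled. In wild type htb1 also stood first, with 1509 ± 74.9 CPM per kb, apart from hht1 with 912 ± 13.4, and the libraries of hht2, hht3 and hta2 overlapped in the places after it. Among 5107 protein-coding genes ranked per kilobase, htb1 held place 82 in the deletion and 121 in wild type, hht1 place 89 and 191, and pht1 place 1458 and 1279.

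Summed over copies, the 4 core histones changed by unequal amounts. The H4 sum was 2007, 2046 and 2099.7 CPM in the deletion libraries, against 1228, 1405 and 1297 CPM in wild type, a ratio of means of 1.57. For H3 the sum averaged 2797 ± 24.3 CPM in the deletion and 1979 ± 41.7 CPM in wild type (SD, n = 3 each), a ratio of 1.41. For H2A it averaged 1784 ± 9.87 CPM in the deletion and 1317 ± 18.03 CPM in wild type, a ratio of 1.35. H2B, with its single gene, had a ratio of 0.994. These sums were not tested, since the genes were chosen with results known.

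Ratios between the classes differed between the genotypes. Per kilobase, H2A transcripts were 1.32, 1.35 and 1.18 times H2B transcripts in the deletion libraries, against 0.92, 0.987 and 0.878 times in wild type. H3 and H4 together were 1.86, 1.9 and 1.81 times H2A and H2B together in the deletion libraries, against 1.45, 1.58 and 1.43 times in wild type. The ratio of H3 to H4 was 1.34 ± 0.0425 in the deletion and 1.48 ± 0.0747 in wild type (SD, n = 3 each). For H2A.Z over H2A it was 0.0432 ± 0.000242 in the deletion and 0.0713 ± 0.00113 in wild type. In each of these 4 ratios the 3 deletion libraries lay on one side of the 3 wild type libraries. For single genes this was common, with 41.8% of all genes wholly above and 38.3% wholly below. How often it occurs for ratios or shares of other genes was not examined. Ratios taken within a library do not depend on the scaling of library sizes, and they were not tested.

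**Figure D4:**
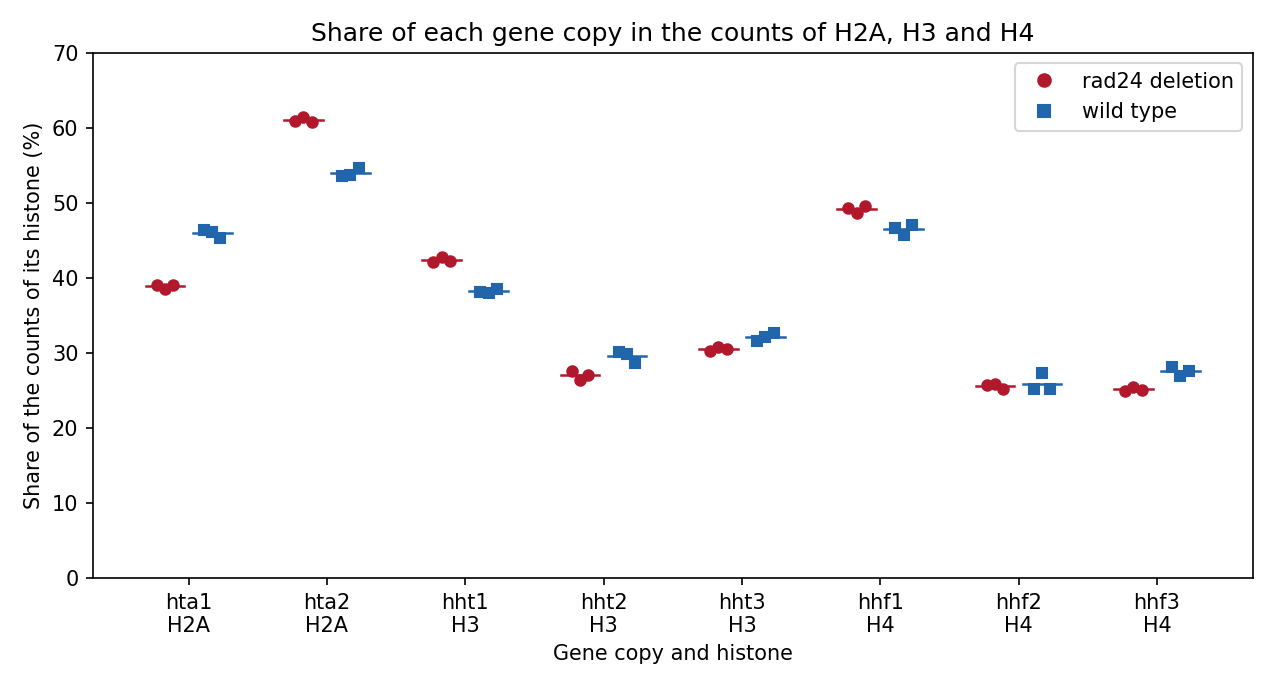
Share of each gene copy in the summed counts of H2A, H3 or H4, in percent, with deletion libraries as red circles, wild type libraries as blue squares and group means as lines. The share of hta2 averages 61.1% in the deletion and 54% in wild type, and the groups are apart for every copy except hhf2.

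Within each class the copies on chromosome I gained share. The hta2 copy supplied 60.9%, 61.5% and 60.9% of H2A counts in the deletion libraries, against 53.6%, 53.8% and 54.6% in wild type. The hht1 copy supplied 42.4 ± 0.396% of H3 counts in the deletion and 38.2 ± 0.297% in wild type (SD, n = 3 each), while hht2 supplied 27.0 ± 0.613% and hht3 30.5 ± 0.219% in the deletion, against 29.6 ± 0.766% and 32.2 ± 0.543% in wild type. Of H4 counts, hhf1 supplied 49.2 ± 0.525% in the deletion and 46.5 ± 0.745% in wild type, and hhf3 supplied 25.2 ± 0.306% in the deletion and 27.6 ± 0.579% in wild type. The share of hhf2 was 25.6 ± 0.324% in the deletion and 25.9 ± 1.24% in wild type, with overlapping libraries. The shift was largest in H2A, where the hta2 share was 7.07 percentage points higher in the deletion, against 4.2 points for hht1 and 2.73 points for hhf1. Shares within a class are not independent of each other, and they were not tested.

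Both genes of each H3-H4 pair rose. The log2 fold changes were 0.65 and 0.73 for hht1 and hhf1, 0.37 and 0.63 for hht2 and hhf2, and 0.42 and 0.52 for hht3 and hhf3, with the larger value in the H4 gene each time, a difference that was not tested. Per kilobase, hht1 was 1.17 ± 0.0447 times hhf1 in the deletion and 1.24 ± 0.055 times in wild type, where the libraries overlap. For hht2 over hhf2 the ratio was 1.64 ± 0.0655 in the deletion and 1.97 ± 0.194 in wild type, and for hht3 over hhf3 it was 1.34 ± 0.0435 in the deletion and 1.43 ± 0.0326 in wild type, with groups apart in both (SD, n = 3 each). How often ratios of other gene pairs separate the genotypes was not examined. The hta1-htb1 pair had log2 fold changes of 0.20 and -0.01, below every H3 and H4 gene and below hta2.

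All 9 core genes carry the doubled AACCCT box printed above, so its presence does not separate hhf1, which rose by 1.66-fold, from htb1, which was not called. The 11 other genes with this word upstream moved both ways. Of these, 4 were higher, 5 lower and 1 not called, and SPAC27E2.11c had too few counts to be tested. The heat shock gene ssa1 had the largest change of the 10 tested, 2.29 on the log2 scale, averaging 201 ± 10.9 CPM in the deletion and 40.6 ± 6.82 CPM in wild type (SD, n = 3 each). The chaperone gene hsp90 (0.37), the TATA-binding protein gene tbp1 (0.42) and the bromodomain gene bdf2 (0.35) were also higher. The squalene monooxygenase gene erg1 (-1.79), the eIF5A gene tif51 (-1.25), eft201 (-0.58), the Ran GTPase gene spi1 (-0.14) and the spindle pole body gene ppc89 (-0.14) were lower on the log2 scale, and the Hsp70 gene ssa2 had -0.12 (edgeR adjusted p = 0.0626). Under library size only, spi1 and ppc89 had the opposite sign and were not called, at 0.026 and 0.028, and ssa2 was called lower without wild type replicate 2 (-0.16, edgeR adjusted p = 0.0123), with RLE factors (edgeR adjusted p = 0.0354) and with DESeq2 (adjusted p = 0.00509). The median of the 10 tested genes was -0.13 on the log2 scale.

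Regulators of histone genes were higher or not called. By edgeR 5 of 7 genes rose, against 40.9% of all genes, and 0 fell. The count of lower genes was also 0 at an unadjusted p below 0.05 and with limma-voom or DESeq2, while the count of higher genes was 5 with limma-voom and 4 with DESeq2. Their median was 0.21 on the log2 scale, against 0.02 for all genes. The gene of the activator Ams2 averaged 159 ± 0.138 CPM in the deletion and 120.4 ± 1.2 CPM in wild type (SD, n = 3 each), with a log2 difference of 0.40 ± 0.03 (SE) and an edgeR adjusted p of 2.33e-08. The gene of Pof3, the F-box protein through which Ams2 is degraded, rose by the same amount (log2 fold change 0.40). Smaller rises were found in hip4 (0.27), which encodes a HIRA component, and in teb1 (0.21), the gene of a DNA-binding transcription factor. In the authors' deposited DESeq2 table, of these 7 genes only ams2 (adjusted p = 2.99e-17) and teb1 (0.00697) passed 0.05. There pof3 had an adjusted p of 0.0821 and hip4 of 0.0734. The HIRA gene slm9 rose as well (0.12), a call that was lost without wild type replicate 3 (edgeR adjusted p = 0.124), without deletion replicate 1 (edgeR adjusted p = 0.0796) and with DESeq2 (adjusted p = 0.126), while hip1 (0.03, edgeR adjusted p = 0.479) and hip3 (-0.03, edgeR adjusted p = 0.393) were not called. Both were called higher under library size only, at 0.19 for hip1 (edgeR adjusted p = 0.000192) and 0.13 for hip3 (edgeR adjusted p = 0.00592), and hip1 also with upper quartile factors (0.13, edgeR adjusted p = 0.00746).

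Of 31 S phase genes, those of MBF, its targets and DNA replication, 21 fell and 3 rose, against 37.4% lower and 40.9% higher among all genes. Their median was -0.25 on the log2 scale. Under library size only 14 fell and 6 rose. The mitotic inhibitor kinase gene mik1 averaged 35.6 ± 0.935 CPM in the deletion and 92.1 ± 4.61 CPM in wild type (SD, n = 3 each), with a log2 difference of -1.37 ± 0.05 (SE) and an edgeR adjusted p of 9.99e-12. The gene ssb2, for a subunit of the single-stranded DNA binding factor RPA, fell by 1.15 on the log2 scale, the cohesin gene rad21 by 0.92 and the ribonucleotide reductase gene suc22 by 0.83. The 3 that rose were hsk1 (0.18), cdc10 (0.16) and the cyclin gene cig2 (0.10). In the authors' deposited DESeq2 table the adjusted p was 0.112 for hsk1, 0.0153 for cdc10 and 0.448 for cig2. Of the genes that fell, mik1, ssb2, rad21 and suc22 were below 0.05 there, but not all the others were. The call of cig2 was lost without wild type replicate 2, deletion replicate 2 or deletion replicate 3, where its edgeR adjusted p was 0.0562, 0.0576 and 0.0515, and with DESeq2, at an adjusted p of 0.134. Whether the culture held more or fewer cells in S phase was not tested.

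Of 16 histone chaperone genes 6 rose and 5 fell, shares near the 40.9% higher and 37.4% lower of all genes, with a median of -0.03 on the log2 scale. The CENP-A chaperone gene scm3 rose to 34.0 ± 1.06 CPM in the deletion, against 20.4 ± 0.959 CPM in wild type (log2 fold change 0.75), alongside cnp1. The nucleosome remodelling gene spt6 fell by 0.63 on the log2 scale, the H2A-H2B chaperone gene nap1 by 0.42 and the FACT subunit gene spt16 by 0.39. In the authors' deposited DESeq2 table spt16 had an adjusted p of 0.0656, while spt6 and nap1 were below 0.05.

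The SWR1 complex, which exchanges H2A for H2A.Z, had 6 of 14 genes lower and 4 higher, against 37.4% lower and 40.9% higher among all genes, with a median of -0.04 on the log2 scale. Its largest change was in swc2, which averaged 27.1 ± 1.34 CPM in the deletion and 114 ± 5.47 CPM in wild type (SD, n = 3 each), with a log2 difference of -2.07 ± 0.05 (SE) and an edgeR adjusted p of 3.03e-13. The genes msc1 (-0.73), rvb1 (-0.50) and bdf1 (-0.48) were also lower, as was pht1, which encodes the histone that the complex deposits. Without wild type replicate 1, without deletion replicate 1, with RLE factors or with DESeq2, 2 genes of this list were called higher in place of 4. In the authors' deposited DESeq2 table most of these 4 had an adjusted p above 0.05.

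The lists of histone modification are short, and their counts stand beside 40.9% higher and 37.4% lower among all genes. Of 8 genes on the acetyltransferase list, which also holds SAGA complex subunits beside the catalytic one, 6 fell and 2 rose. Among them were the H3 acetyltransferase genes mst2 (-1.64) and rtt109 (-0.48) and the Elongator gene elp3 (-0.60) down and naa40 (0.58) up. Of 6 deacetylase genes 3 rose and 0 fell by edgeR, and all 6 fold changes were above 0, with the sirtuin genes sir2 (0.31), hst2 (0.22) and hst4 (0.11) higher. The call of hst4 was lost with RLE factors (edgeR adjusted p = 0.06), with DESeq2 (adjusted p = 0.148) and without either of wild type replicates 1 and 3 or either of deletion replicates 1 and 2, where its edgeR adjusted p was 0.0776, 0.0634, 0.094 and 0.096. Of 10 methyltransferase and demethylase genes 6 fell and 2 rose, and the largest falls were in the H4 lysine methyltransferase gene set9 (-1.59), in epe1 (-0.97), in the demethylase gene jmj3 (-0.65) and in the predicted methyltransferase gene set7 (-0.54). In the H2B ubiquitylation list the ligase gene brl1 (-1.07) fell, the SAGA deubiquitinase gene ubp8 (0.70) and the conjugating enzyme gene rhp6 (0.18) rose, and the second ligase gene brl2 was lower with TMM scaling (-0.11) and not with library size only (0.057).

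**Figure D5:**
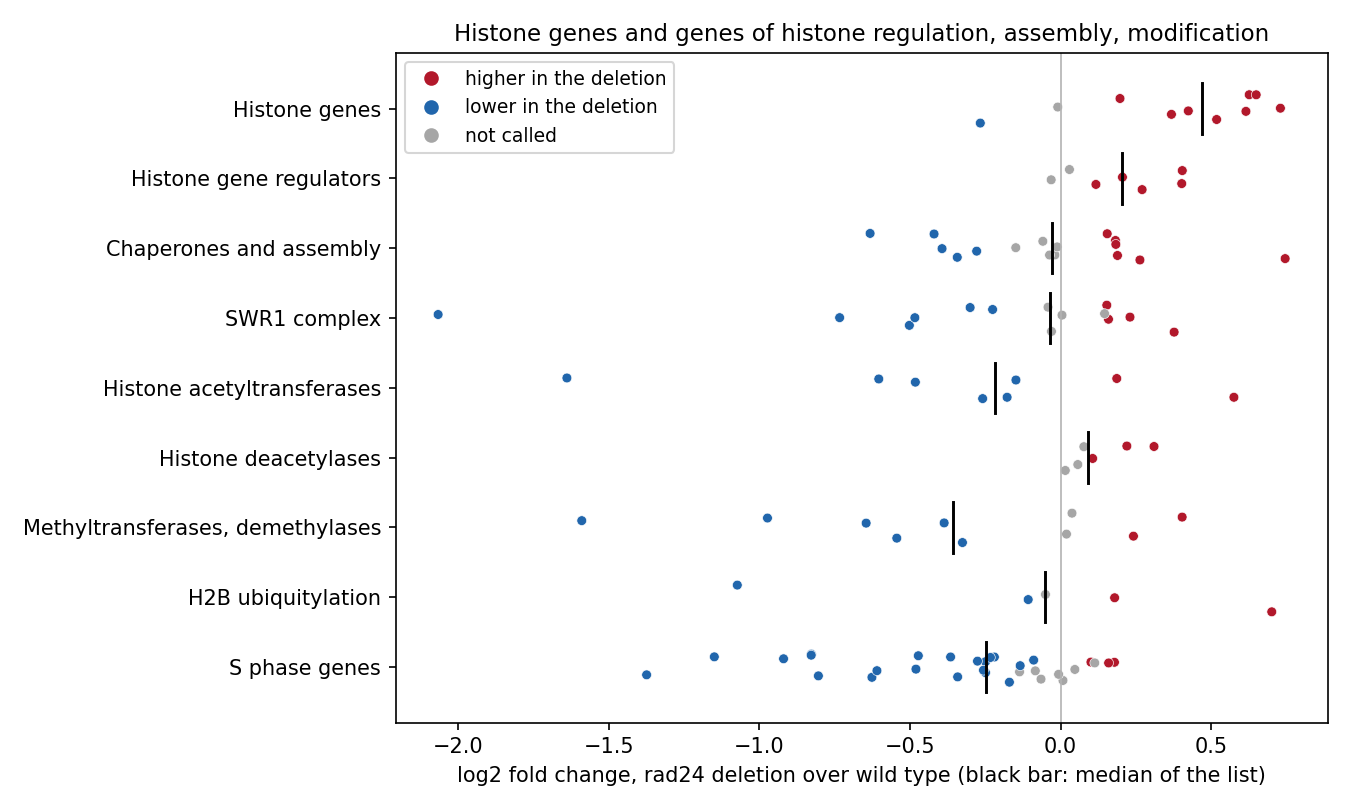
The log2 fold change of every tested gene of the histone set and of 8 lists of histone regulation, assembly, modification and S phase, deletion over wild type, with red for higher, blue for lower and grey for not called, and a black bar at the median of each list. The histone genes have a median of 0.47 and the S phase genes one of -0.25.

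Taking the 97 genes of the 8 lists together, 27 were higher and 46 lower in the deletion, so higher genes were 37% of the calls. With scaling by library size only, 44 were higher and 33 lower, or 57.1% of the calls. For all genes the share of higher calls was 52.3% under TMM and 67% under library size only. Changes of the histone genes relative to the median of all genes were alike under both, with the set's median at 0.64 and the median of all genes at 0.19 under library size only.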

How the data were processed

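Poly(A)+ RNA of 3 rad24 deletion and 3 wild type libraries was measured, grouped by genotype label. The submitters' processing notes name HISAT2 2.1.0 and HTSeq 0.10.0, with SAMtools, DESeq2 and the build ASM294v2. The authors deposited raw counts per gene (6987 rows, 1 repeated identifier, first row kept). A second deposited table by the authors gives log2 fold changes and SEs, as well as p-values and a test score. The group means of normalized counts in it, a signal deposited by the authors, were not used.

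The count test was that of edgeR 4.0.16, run in R 4.3.3 (quasi-likelihood, genotype only, TMM factors, Benjamini-Hochberg adjustment). The filterByExpr minimum left out 902 genes. Each SE is the absolute log2 fold change over the square root of F. On simulated counts for 6055 genes, 84% of 1.25-fold and 96% of 1.5-fold changes were recovered, and 9 unchanged genes were called. The simulation changed 50 genes at each fold, equally often up and down, with the same dispersion for all genes. In the data 78.3% of the genes tested were called, so these rates may not hold for it. No 2 libraries of a genotype were near enough to be 1 library deposited again, since their counts gave a chi-square of 2.44 to 7.94 per degree of freedom.

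Members and lists were chosen with earlier results of these data known. Named genes are the members, cnp1, rad24, antisense genes of members and up to 4 called genes with the largest change per list. Genes with the doubled box were named because they hold it, and slm9, hip1, hip3, hsk1, cdc10 and cig2 after their values were seen. Of the listed names, spt21 was not matched, rtt106 was matched through the reference annotation, and phd1 and pol2 were the same genes as hos2 and cdc20. Sequences, lengths and positions come from ASM294v3 alone, read with Biopython 1.88, and no coordinates were carried between builds. The alternatives tried are given in the closing section.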

Additional observations from a re-analysis of the deposited data

How the results depend on the processing

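The alternatives were scaling by RLE factors, by upper quartiles or by library size only, a filter of 50 counts or none, DESeq2 1.42.0, limma-voom 3.58.1, robust dispersion, protein-coding genes only and each library left out in turn. Under these, 8 or 9 histone genes were called higher and 1 lower. Without a library the count was 8 higher each time. The added gene was htb1 with library size only, where its sign turned (0.16, edgeR adjusted p = 0.0252). Without a library htb1 ranged over -0.07 to 0.03 on the log2 scale and was not called. With library size only the summed log2 ratios were 0.60 for H2A, -0.10 for H2A.Z, 0.16 for H2B, 0.66 for H3 and 0.81 for H4, against 0.44, -0.27, -0.01, 0.50 and 0.65 with TMM, and with RLE factors the H2A ratio was 0.42. The median of all genes was 0.02 with TMM, 0.19 with library size only and 0.00058 with RLE factors. Library size only also called 44 list genes higher in place of 27 and turned the sign of brl2 (0.057, edgeR adjusted p = 0.157), hip3 (0.133), ppc89 (0.0281) and spi1 (0.0261). The call of hst4 was lost in 6 of 16 alternatives. List counts that moved by over 1.5 times were 2 to 7 SWR1 genes higher (4 in the TMM fit), up to 6 deacetylase genes higher (3), up to 10 chaperone genes higher (6), up to 4 methylation genes higher (2), up to 6 S phase genes higher (3), at least 3 acetyltransferase genes lower (6) and 1 ubiquitylation gene lower (2).

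The replicate numbers did not pair the libraries, with correlations of deviations of -0.000276 to 0.0828 for the same number. With the number as a replicate block, 2487 genes were higher and 2266 lower, against 2491 and 2275 without it, and 8 histone genes were higher and 1 lower. Among the genes named, the block changed the call of ssa2 alone (-0.12, edgeR adjusted p = 0.0343).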
